A study of Caenorhabditis elegans with 8 samples.

Results

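The baseline described here is the transcriptome of the DMSO control worms, read from the 3 libraries titled as controls out of 8 in the series. The animals were whole Caenorhabditis elegans, a free-living nematode, and total RNA was extracted with TRIZOL. The remaining libraries came from worms given 200 µM of magnolol or honokiol for 1 h, and none of them enters any value below. The controls received DMSO, the solvent. Neither strain, sex, developmental stage, food nor length of DMSO exposure is given for the control worms in the sources used here. No label says whether the controls came from separate cultures, so the spread between them may be technical.

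An adult hermaphrodite of this species has a fixed number of somatic cells and a large germline that makes sperm during the last larval stage and oocytes afterwards. The intestine of the adult makes vitellogenins, the yolk lipoproteins that are taken up by oocytes. The epidermis secretes a collagen cuticle that is replaced at each molt, and collagen genes are transcribed in waves tied to the molts. In whole animals each transcript level is a sum over all tissues, weighted by tissue size.

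The controls held 33645839, 33041126 and 30274330 counts in libraries 1, 2 and 3. Of 21309 rows, 2450 had no count in any control, 14423 reached a mean of 1 CPM (read counts scaled to a common library size) and 116 reached 1000 CPM. CPM values were scaled by TMM and serve to compare a row between libraries. To compare genes with each other, CPM was divided by exon length and rescaled to the same sum in each library (called TPM here) for the 17761 rows with a length. A count of 0 allowed a level of up to 0.0886, 0.0904 and 0.1002 CPM in controls 1, 2 and 3, from a limit of 3 counts that covers counting error only. Loci that the authors added to the gene models took 1.43%, 1.52% and 2.77% of counts in controls 1, 2 and 3, so their share was highest in control 3.

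Per unit of length, ribosomal proteins dominated the control transcriptome. Of the 20 genes with the highest mean TPM, 18 were on the list of cytosolic ribosomal proteins used here. The 65 rows of that list together made up 18.8% ± 0.62 of the length-scaled level (SD, n = 3). The list may lack ribosomal proteins known only by a sequence name. Among genes with a length the highest was rps-23, a small-subunit protein (chromosome IV, 12390298 to 12391053 on the minus strand in the WBcel235 annotation). It had 6578, 6945 and 7911 TPM in controls 1, 2 and 3. Next was far-2, which encodes a fatty acid and retinol binding protein (chromosome III, 9081828 to 9082511 on the plus strand), with 6431, 6474 and 6016 TPM. The third was Y37E3.8, which has a sequence name and is not on the ribosomal list, with 5162, 5493 and 5959 TPM. The levels of rps-23 and far-2 lay close together in controls 1 and 2 and apart in control 3, where rps-23 was at its highest and far-2 at its lowest.

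**Figure D1:**
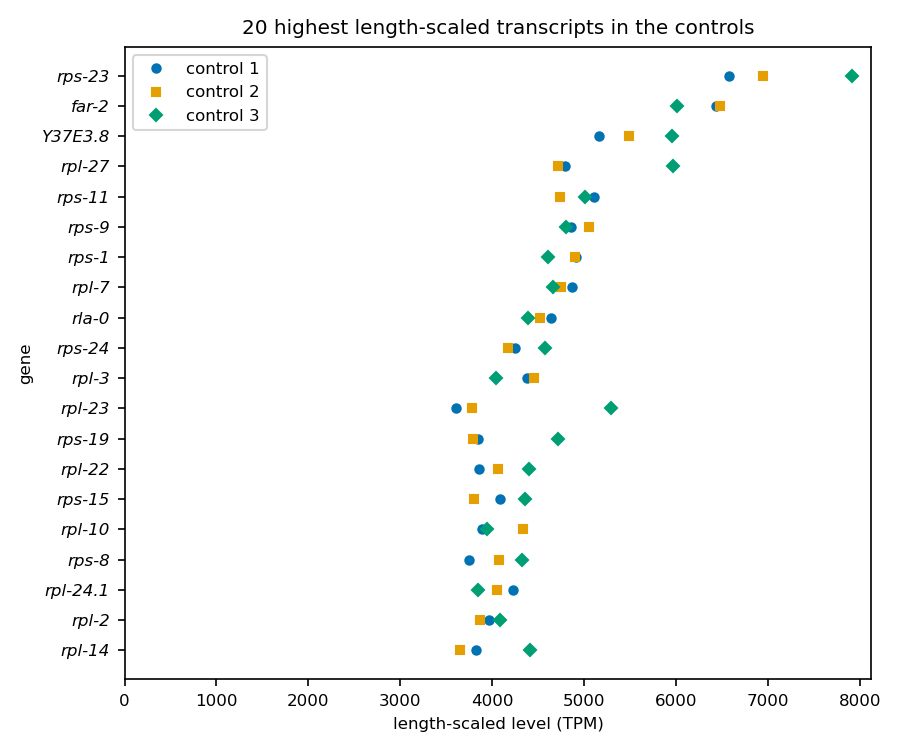
Length-scaled level (TPM, horizontal axis) of the 20 genes with the highest mean over the controls, with a point for each library. Control 3 lies to the right of both other libraries for rps-23, rpl-27, rpl-23 and rps-19, while far-2 is lowest in control 3. The ribosomal genes rps-9, rps-1, rpl-7, rla-0, rpl-3 and rpl-24.1 are also lowest in control 3.

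Reads were spread over many genes. The 20 highest genes held 9.10%, 9.16% and 9.73% of the length-scaled level in controls 1, 2 and 3, and 470 genes were needed to reach 50% of it. At 1000 TPM or more there were 137 genes, of which 59 were on the ribosomal protein list and 20 were cuticle collagens. By reads instead of by length, the highest means were those of eef-1A.1, the yolk genes vit-6 and vit-2, and the added loci NewGene_1071 and NewGene_1072. The row of eef-1A.1, a translation elongation factor, held 10172, 9659 and 9832 CPM in controls 1, 2 and 3. Because its symbol stands on more than 1 row, its reads may be split between near-identical copies. For the same reason it has no length here, so it is absent from the ranking and the shares by TPM. Among rows with a length, ant-1.1, a mitochondrial ADP/ATP carrier, came directly after the 20 highest by TPM. By reads it had 3130, 3276 and 3176 CPM in controls 1, 2 and 3. The nuclear genes of the respiratory chain made up 1.94% ± 0.047 of the length-scaled level (SD, n = 3), led by the ATP synthase subunits atp-2 at 2115 ± 82.3 TPM and atp-1 at 1753 ± 97.9 TPM. Translation factors made up 1.54% ± 0.043 and lysosomal proteases 1.32% ± 0.026. Mitochondrially encoded genes were not analysed here.

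Yolk and intestinal transcripts were abundant in all 3 controls. Of the 6 vitellogenin genes, vit-6 (chromosome IV, 8261157 to 8266459, plus strand) had 8500, 7129 and 8405 CPM in controls 1, 2 and 3. The second, vit-2 (chromosome X, 5101042 to 5106169, plus strand), had 7881, 6496 and 7536 CPM. Both were lowest in control 2. Per length vit-6 had 2635, 2178 and 2528 TPM and vit-2 had 2508, 2036 and 2326 TPM, so vit-6 was above vit-2 in each library. The third, vit-5, stood at 830 ± 60.4 TPM, while vit-4, vit-3 and vit-1 lay between 155 ± 13.9 and 98.5 ± 7.09 TPM. In whole-animal RNA such levels do not tell fewer cells of a type from less RNA per cell.

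Of 14 intestinal markers, 13 reached 5 CPM, against 52.9% of all rows and 54.7% of gene models. These shares are the reference for every later count of rows at 5 CPM. The aspartic protease asp-1 had 2338, 2252 and 2728 CPM in controls 1, 2 and 3 and was the highest intestinal marker per length, at 3165 ± 291 TPM (SD, n = 3). The gene acdh-1, an acyl-CoA dehydrogenase of propionate breakdown, had 2063, 1967 and 2128 CPM. Structural and transport markers of the gut were also clear, with the intermediate filament ifb-2 at 434 ± 9.93 TPM, the proton pump subunit vha-6 at 338 ± 24.9 TPM and the peptide transporter pept-1 at 56.7 ± 2.92 TPM. The transcription factor elt-2, which specifies the intestine, had 37.9, 33.5 and 27.6 CPM. It was lowest in control 3. The metallothionein mtl-2 was the only intestinal marker under 5 CPM, with 2.51, 2.65 and 3.27 CPM.

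Muscle genes were also abundant. Body wall muscle markers made up 1.19% ± 0.0083 of the length-scaled level (SD, n = 3). Of their 16 rows 15 reached 5 CPM, against 52.9% of all rows. The body wall myosin heavy chain unc-54 had 5559, 4909 and 5859 CPM in controls 1, 2 and 3, and the second body wall heavy chain, myo-3, had 464, 446 and 576 CPM. Both were highest in control 3. Among the thin filament genes, the troponin C gene pat-10 reached 3412 ± 115 TPM and the troponin I gene unc-27 reached 2128 ± 115 TPM. The myogenic transcription factor hlh-1 was the row under 5 CPM, with 2.304, 3.77 and 3.84 CPM. In the pharynx, the feeding organ, the muscle myosins myo-2 and myo-1 stood at 130 ± 7.95 and 115 ± 10.7 TPM, with myo-2 above myo-1 in each library. The most abundant pharyngeal muscle marker was the troponin I gene tni-4, at 270 ± 27.1 TPM.

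Pan-neuronal markers had a list median of 15.5 TPM, against 218 TPM for intestine and 675 TPM for body wall muscle, although single genes overlapped between the lists. All 17 pan-neuronal rows reached 5 CPM, against 52.9% of all rows. The highest per length were the neuropeptide-processing genes egl-21 (a carboxypeptidase) at 112 ± 5.49 TPM and sbt-1 at 99.9 ± 5.91 TPM, followed by egl-3 (a proprotein convertase) at 79.1 ± 6.24 TPM. Synaptic genes were lower, with the syntaxin unc-64 at 26.3 ± 1.46 TPM and rab-3 at 14.9 ± 1.12 TPM. Of 11 genes for transmitter synthesis and transport, 5 reached 5 CPM, against 52.9% of all rows. The highest were those of octopamine synthesis, which gonadal cells also express besides neurons: tdc-1 had 102, 109 and 89.95 CPM in controls 1, 2 and 3, and tbh-1 had 71.5, 75.6 and 57.3 CPM. Both were lowest in control 3. The serotonin synthesis gene tph-1 had 1.03, 1.39 and 1.14 CPM. Of 14 ciliated sensory neuron genes 3 reached 5 CPM, and of 7 glial genes 3, against 52.9% of all rows.

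Epidermal regulators were present at moderate levels, with lin-26, which specifies the epidermis, at 37.3 ± 2.92 TPM and the GATA factor elt-3 at 23.5 ± 2.36 TPM (SD, n = 3). Of 13 epidermal rows 11 reached 5 CPM, against 52.9% of all rows. The excretory aquaporin aqp-8 had 64.2, 67.9 and 69.98 CPM in controls 1, 2 and 3, and the coelomocyte gene cup-4 had 16.9, 16.51 and 17.997 CPM. Seam cell markers were the sparsest of the epidermal lineage: 2 of 4 reached 5 CPM, and nhr-72 had no count in any control. The gonadal sheath innexin inx-8 had 56.3, 67.8 and 53.4 CPM, and all 7 sheath and spermatheca genes reached 5 CPM.

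Germline transcripts were detected across the whole course of germ cell development. All 16 germ granule and germ cell rows, all 20 meiotic chromosome genes, all 17 oocyte and eggshell genes and all 13 maternal polarity genes reached 5 CPM, against 52.9% of all rows. For germ cells, the P granule gene pgl-1 had 535, 574 and 453 CPM in controls 1, 2 and 3, and gld-1, an RNA-binding repressor of the pachytene germline, had 423, 341 and 480 CPM. Control 3 was lowest for pgl-1 and highest for gld-1. The receptor glp-1, which keeps germline stem cells dividing, had 139, 141 and 155 CPM. Meiotic genes lay in a narrower band, with a list median of 52.8 TPM, from msh-5 at 24.045 ± 1.92 TPM to the axis protein him-3 at 144 ± 11.5 TPM. Each of the 20 differed by less than 1.5-fold between its highest and lowest control. The maternal polarity list had a median of 63.1 TPM. On it spn-4 and mex-5, regulators of maternal mRNA and polarity, stood at 182 ± 7.46 and 162 ± 16.43 TPM. Its highest member, glp-4, stood at 215 ± 25.4 TPM, and whether glp-4 acts in polarity was not examined.

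Oocyte and eggshell genes had the highest median among these 4 germline lists, at 170 TPM. The chondroitin proteoglycans of the eggshell led them, with cpg-2 at 882, 945 and 773 CPM in controls 1, 2 and 3 and cpg-1 at 647, 631 and 833 CPM. Control 3 was lowest for cpg-2 and highest for cpg-1. The chitin-binding eggshell protein cbd-1 had 717, 674 and 978 CPM, a 1.45-fold range, the widest of the list. The RNA-binding proteins of oocyte maturation, oma-1 and oma-2, stood at 77.2 ± 4.02 and 98.4 ± 2.80 TPM (SD, n = 3), and the translational repressor puf-5 at 181 ± 7.61 TPM. The egg-3 gene, needed for egg activation, had 80.3, 80.6 and 63.5 CPM. None of the 17 reached a 1.5-fold range.

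Sperm genes were present beside the oocyte genes. Of 15 major sperm protein rows, which encode the cytoskeletal protein of crawling sperm, 12 reached 5 CPM, and the 8 with a length had a median of 405 TPM. The highest, msp-33, had 174, 200 and 260 CPM in controls 1, 2 and 3. Reads of these near-identical genes may be split between copies, so the level of a single msp gene is uncertain. Of the 52 other sperm and spermatid rows 41 reached 5 CPM, against 52.9% of all rows. The sperm chromatin genes led them: spch-3 had 215, 213 and 204 CPM, and spch-1 had 163, 169 and 144 CPM. Both were lowest in control 3. The sperm phosphatase gsp-3 stood at 153 ± 17.9 TPM. For the switch between sperm and oocyte fate, fog-1 and fog-3, which promote sperm fate, had 16.95, 16.7 and 12.35 CPM and 4.40, 3.04 and 5.31 CPM. The gene tra-2, which promotes female fate, had 57.7, 55.2 and 56.6 CPM. Per length, fog-1, fog-3 and tra-2 had means of 11.2, 6.58 and 17.3 TPM. The rest of this list lay above tra-2. By mean, mog-1 had 70.2, fem-2 63.2, fem-1 49.8, fem-3 36.2, fog-2 33.5 and tra-1 19.6 TPM. These levels therefore do not rank sperm fate against female fate.

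No stage is given for the worms, so stage markers were examined. Genes first transcribed by the early embryo were at or near 0. Of 18 such genes 8 had no count in any control, among them the T-box genes tbx-35, tbx-37 and tbx-38, and 2 reached 5 CPM. Those were the cell cycle inhibitor cki-1, with 15.1, 13.6 and 15.7 CPM in controls 1, 2 and 3, and the epidermal GATA factor elt-1, with 14.3, 11.6 and 14.6 CPM, both of which later stages also express. The endoderm genes end-1 and end-3 stayed under 0.5 CPM in each library.

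Adult and late larval cuticle genes were strong. All 12 L4 and adult cuticle rows reached 5 CPM, against 52.9% of all rows. The adult collagen col-19 had 764, 863 and 716 CPM in controls 1, 2 and 3 and stood at 1296 ± 132 TPM (SD, n = 3), and col-38 stood at 931 ± 78.0 TPM. Collagens that also build larval cuticles were present too. Among them col-13 and col-12, a neighbouring pair, stood at 1538 ± 24.5 and 1268 ± 32.3 TPM, and dpy-5 stood at 961 ± 108 TPM. In contrast, dpy-17 and dpy-14 had under 5 CPM. Of 18 molting and apical matrix genes 17 reached 5 CPM, with the peroxidase mlt-7 at 212, 186 and 191 CPM and mlt-10 at 128, 131 and 159 CPM. Of 8 heterochronic genes, which time the larval stages, 6 reached 5 CPM, against 52.9% of all rows. The lin-41 gene, which also acts in oocytes, had 171, 126 and 186 CPM. The lin-29 gene, which directs the adult program of the epidermis, had 13.2, 11.7 and 14.7 CPM. Among other genes of this list, lin-28 and lin-14 were above lin-29 in each library. In controls 1, 2 and 3, lin-28 had 51.33, 51.975 and 52.49 CPM, and lin-14 had 33.5, 23.4 and 34.9 CPM.

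Dauer and male markers were low. None of the 6 genes of the dauer list reached 5 CPM, and the highest by CPM, cut-5, had 2.48, 1.75 and 1.202 CPM in controls 1, 2 and 3. None of 14 male genes reached it either, against 52.9% of all rows. The highest was ram-5, with 3.99, 3.74 and 4.61 CPM, and the male neuron gene pkd-2 had 0.236, 0.181 and 0 CPM. No count fell on cwp-1, cwp-2 or cwp-3, which allows at most the 0.0886, 0.0904 and 0.1002 CPM given above.

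**Figure D2:**
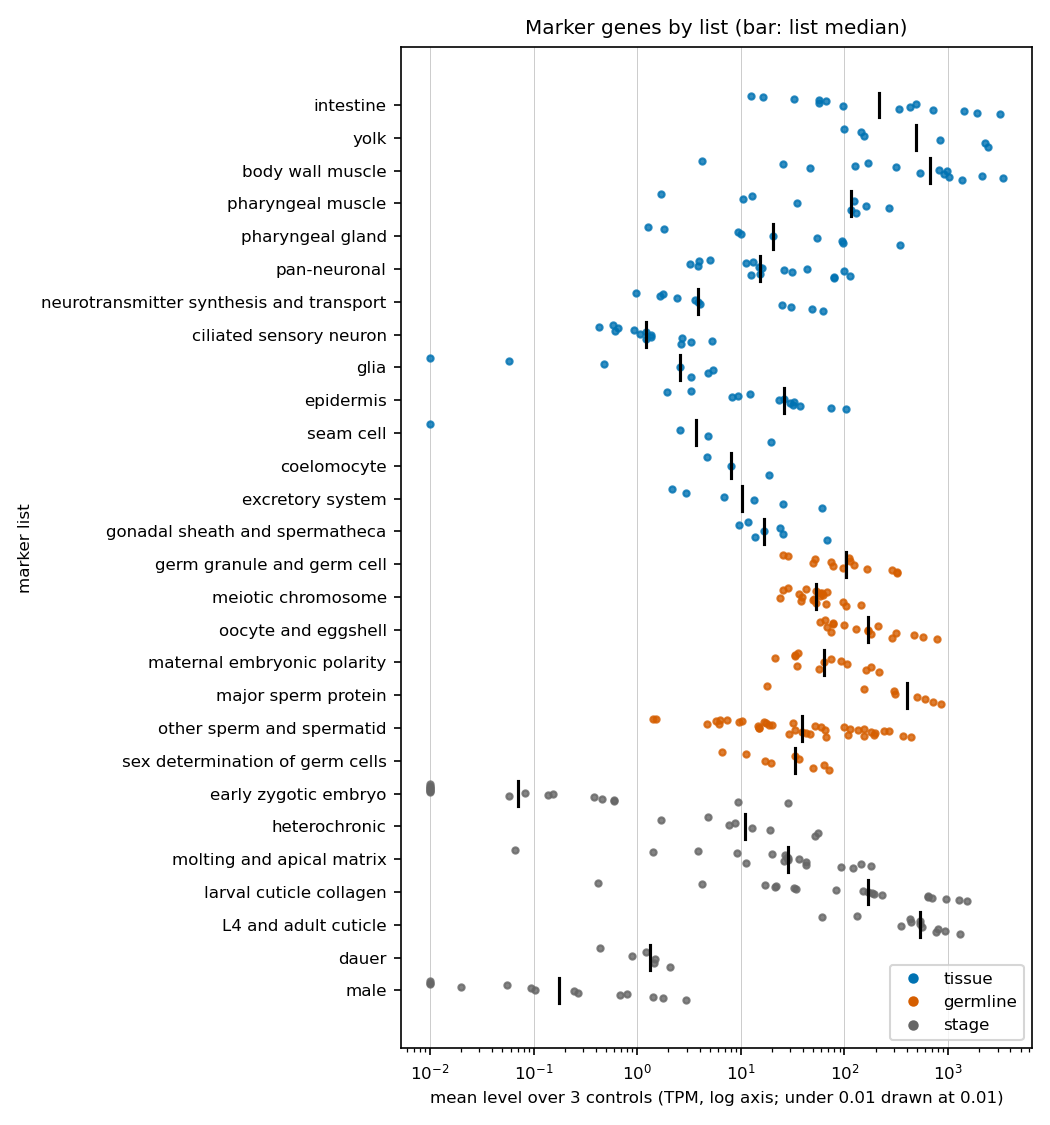
Mean length-scaled level over the controls (TPM, log axis) of each marker gene that has a length, grouped by list, with a bar at the list median. Oocyte, meiotic, maternal, intestinal, muscle and adult cuticle genes lie mostly above 20 TPM, while early embryonic, dauer and male genes lie below 3 TPM apart from cki-1 and elt-1.

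Among larger gene families, cuticle collagens ranked next to the ribosomal proteins. Their 168 rows made up 6.25% ± 0.30 of the length-scaled level (SD, n = 3), and 121 reached 5 CPM. The highest were col-124 at 2661 ± 268 TPM, col-140 at 2586 ± 238 TPM, col-139 at 2320 ± 146 TPM and col-81 at 2271 ± 98.4 TPM. Chaperones of the cytosol made up 0.50% ± 0.0043, led by the constitutive genes hsp-90 at 1812 ± 155 TPM and hsp-1 at 1670 ± 75.8 TPM and by the small heat shock gene sip-1 at 987 ± 95.5 TPM. The heat-inducible genes hsp-70 and hsp-16.41 were low, with 0.916, 0.633 and 1.64 CPM and 0.591, 1.57 and 1.17 CPM. In the endoplasmic reticulum, the calcium-binding chaperone crt-1 stood at 2037 ± 202 TPM, and the stress-inducible BiP gene hsp-4 had 573, 577 and 507 CPM. Chemoreceptor genes were at the other end. Of 1320 rows 725 had no count in any control and 7 reached 5 CPM, against 52.9% of all rows. Of 258 nuclear hormone receptor rows 113 reached it, of 248 C-type lectin rows 66, and of 452 F-box and MATH-BTB rows 96.

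Levels also differed between chromosomes. Of genes with a length, 86.7% on chromosome III and 82.7% on chromosome I reached 1 TPM, against 57.7% on chromosome V, where 18.8% of genes were chemoreceptors. On chromosome X 75.4% reached it, yet those genes had a median of 11.5, 10.8 and 10.98 TPM in controls 1, 2 and 3. On chromosome I the median was 36.8, 35.9 and 35.1 TPM. By this median the X chromosome was thus the lowest in each library. It held 13.5% of the genes and 7.88%, 7.69% and 7.82% of the length-scaled level. Over all genes with a length, the median was instead lowest on chromosome V, at 2.52 TPM against 6.27 TPM on X. Of the 64 genes with a length in the germ granule, meiotic, oocyte and maternal lists 0 lie on X, against 7 of 23 muscle genes and 3 of 17 pan-neuronal genes.

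**Figure D3:**
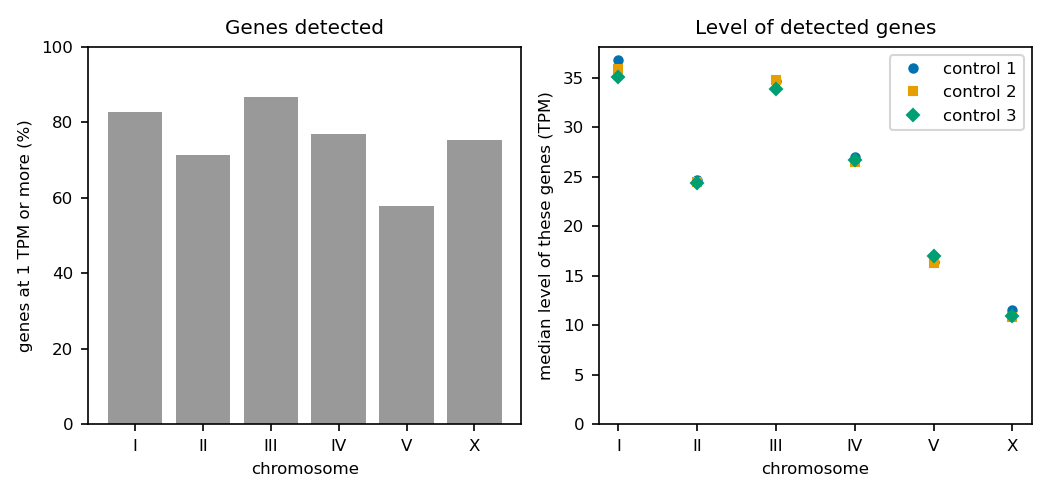
Left, percent of genes with a length that reached 1 TPM on each chromosome. Right, median level of those genes (TPM) in each control library, lowest on X and highest on I and III in all 3.

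The 3 controls were close for most genes, and among the rest control 3 was most often the highest. Over the 11272 rows at a mean of 5 CPM or more, the median fold between the highest and the lowest control was 1.19, and 90% of rows were under 1.47. A row is called varying where that fold was at least 1.5, which held for 985 rows or 8.74%. A 2-fold difference was met by 98 rows or 0.869%. Control 3 was the highest library in 631 varying rows (5.6% of all rows) and the lowest in 209, and it lay between the others in 145. Control 2 was the highest in 167 and the lowest in 450, and control 1 was the highest in 187 and the lowest in 326. Without control 3, 209 rows varied between the remaining pair, against 591 without control 1 and 527 without control 2. The biological coefficient of variation (the spread beyond counting error, from edgeR) was 11.8%, and 8.92% without control 3. Low levels added to the count of varying rows: 27.6% of rows at 5 to 10 CPM varied, against 1.74% at 50 to 500 CPM. At 5 CPM, a mean of 162 counts, counting error alone gives a coefficient of variation of 7.86%.

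The deviation of control 3 moved with gene length. Each library was set against the mean of the other libraries, as log2 of CPM with a pseudocount of 1. Across 9942 genes this deviation had a Spearman rho with exon length of 0.24, 0.080 and -0.22 for controls 1, 2 and 3. Genes do not vary independently and share these libraries, so the values are descriptions. Of genes under 500 bases 26.3% varied, with a median log2 deviation of 0.27 in control 3, against 4.49% and -0.073 at 2000 to under 4000 bases. The relation was not one-way: among the 616 genes of 4000 bases or more 6.66% varied, control 3 was again above the others, at 0.060, and control 2 was at -0.089. Short genes were also lower, with a median of 16.15 CPM against 55.6 CPM, and among rows at 20 CPM or more 11.5% of those under 500 bases varied against 1.94%. When the trend with length was taken out of each library, 730 of the 9942 genes (7.34%) varied, against 834 (8.39%) of the same genes before.

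**Figure D4:**
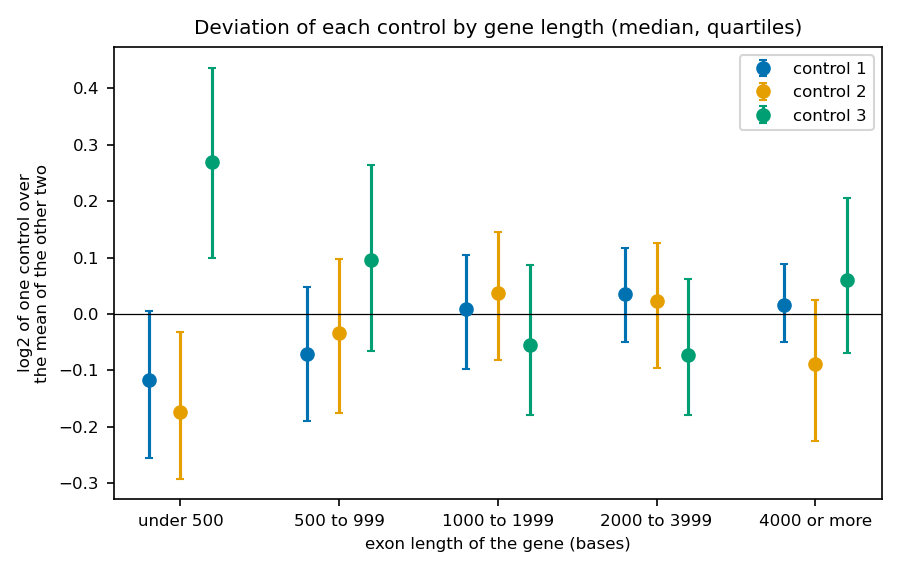
Deviation of each control from the mean of the other libraries (log2 of CPM plus 1), by exon length, as the median with quartiles. Control 3 lies at 0.27 for genes under 500 bases at -0.073 for 2000 to under 4000 bases and at 0.060 for 4000 bases or more. Controls 1 and 2 lie below 0 under 500 bases, and control 2 again, at -0.089, in the longest class.

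Epidermal antimicrobial peptides were the list of 12 or more rows with the highest share of varying members. Of 24 rows at 5 CPM or more 9 varied (37.5%, against 8.74% of all rows), of which 8 were highest in control 3. Among these small secreted peptides, fipr-4 had 7.83, 4.49 and 10.7 CPM in controls 1, 2 and 3, and fip-6 had 10.7, 7.26 and 14.3 CPM. In both, control 2 was the lowest and control 3 the highest. The count was 9 without control 1, 3 without control 2 and 2 without control 3, and 6 of the 9 rows lay under 10 CPM, where 27.6% of all rows varied. The more abundant nlp-29, a peptide gene induced by wounding and fungal infection, had 27.7, 26.9 and 33.7 CPM and did not vary by this measure. The list had a median exon length of 376 bases, and with the length trend removed 7 of 24 varied while its median deviation in control 3 went from 0.33 to 0.091.

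Sperm genes other than the major sperm proteins came next among the germline lists. Of 41 rows 11 varied (26.8%, against 8.74% of all rows), and all 11 were highest in control 3. They included 4 rows of msd-4 and 2 of nspd-4, which share a symbol and whose reads may be split. The row gene10599 of msd-4 had 55.8, 52.2 and 104.04 CPM in controls 1, 2 and 3. The sperm activation inhibitor swm-1 had 20.05, 23.2 and 33.2 CPM. Of the 30 rows with a length 5 varied before and 0 after the length trend was removed. The count was 8, 5 and 0 without controls 1, 2 and 3. None of the 12 major sperm protein rows varied, but msp-33 at 1.496-fold and msp-152 at 1.466-fold came close. Both were highest in control 3, while others, such as msp-78 and msp-58, were lowest there. The genes spch-3 and gsp-3 were also lower in control 3 than in the others.

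Neuropeptide genes varied in 12 of 45 rows (26.7%, against 8.74% of all rows), 8 of them highest in control 3. The gene flp-24 had 8.68, 9.67 and 15.4 CPM in controls 1, 2 and 3, whereas nlp-21 had 13.9, 17.5 and 11.2 CPM. Their highest libraries differed. The count was 8, 3 and 3 without controls 1, 2 and 3, and 1 at a mean of 20 CPM or more, with 8 of the 12 rows under 10 CPM. Of 42 rows with a length 12 varied before and 7 after removal of the trend. In lysozyme and saposin-like genes, antibacterial proteins of the gut, 6 of 24 varied, against 8.74% of all rows. The 6 were all highest in control 3, and 1 of the 24 varied after removal. Without controls 1, 2 and 3 the count was 4, 5 and 0, and it was 1 at a mean of 20 CPM or more. The saposin-like gene spp-2 had 62.5, 65.6 and 101 CPM. Of 7 pharyngeal gland genes 4 varied, against 8.74% of all rows. After removal 4 still did, but 0 without control 3, and dod-6 had 34.05, 24.6 and 47.4 CPM.

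**Figure D5:**
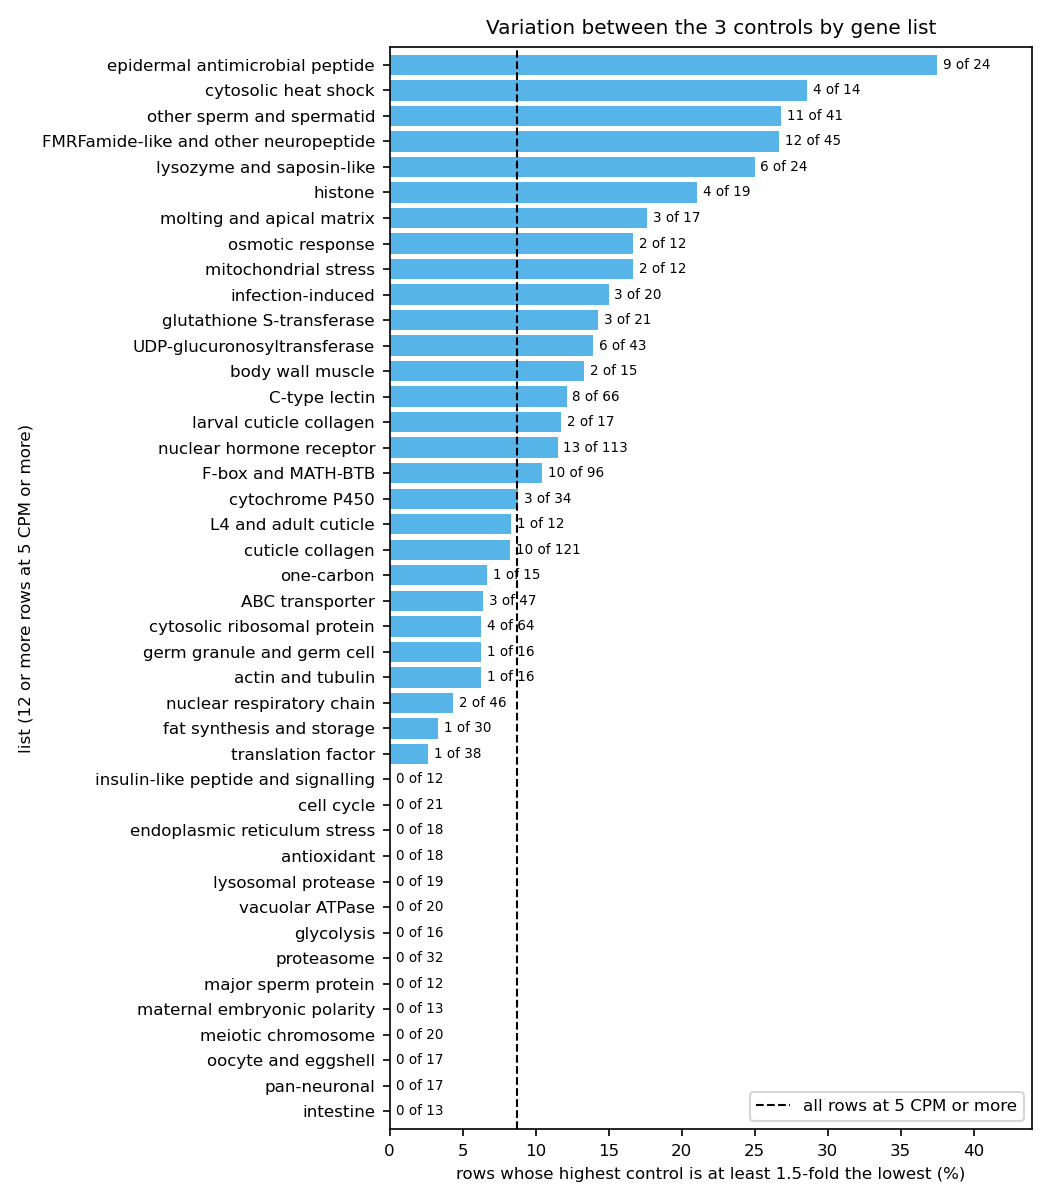
Percent of rows at 5 CPM or more whose highest control was at least 1.5-fold the lowest, for lists of 12 or more such rows, with the counts beside each bar. The dashed line is the 8.74% of all rows, and antimicrobial peptides reach 37.5% while 14 lists are at 0.

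Cuticle collagens varied about as often as all rows. Of 121 collagen rows 10 varied, against 8.74% of all rows, and 5 of the 10 were highest in control 3. Of those 5, bli-1, with 98.9, 90.4 and 166 CPM in controls 1, 2 and 3, dpy-4, with 346, 363 and 534 CPM, and sqt-3, with 180, 180 and 275 CPM, had the most reads. For all 3 the first pair of libraries was close and control 3 was above it. The collagen col-98, with 86.2, 110.5 and 72.8 CPM, was instead highest in control 2. Among molting and timing genes, the protease inhibitor mlt-11 had 72.5, 48.6 and 90.9 CPM, and the period-like molting timer lin-42 had 40.9, 41.2 and 66.4 CPM. Of the 117 collagen rows with a length 10 varied both before and after the trend was removed. The median of the collagens in control 3 was 0.0031 in log2.

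Of 14 heat shock rows 4 varied, against 8.74% of all rows, and they belong to only 2 symbols, F44E5.4 and hsp-16.1. Of the 4, 2 lay under 10 CPM, and 27.6% of all rows at 5 to 10 CPM varied. None varied among rows at 20 CPM or more. The HSP70 gene F44E5.4, which stands on more than 1 row, had 7.38, 22.5 and 4.04 CPM in controls 1, 2 and 3 on row gene8423, and 7.62, 22.3 and 4.17 CPM on row gene8424. Control 2 was thus the highest, at 5.58-fold the lowest on the first of these rows, the largest fold of any row at 5 CPM or more. The small heat shock gene hsp-16.1 had 3.66, 5.996 and 6.34 CPM on row gene35931, while hsp-16.48 had 7.59, 8.05 and 8.15 CPM on row gene35933. The constitutive hsp-1 had 2269, 2121 and 2326 CPM. The highest library was thus control 2 for F44E5.4 and control 3 for hsp-16.1.

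Other rows with the largest folds were low and mostly highest in control 3. The collagen col-41 had 15.8, 4.76 and 16.7 CPM in controls 1, 2 and 3, and was low in control 2 alone. The gene osm-8, a mucin-like protein of the osmotic response, had 3.51, 2.98 and 8.85 CPM. The histone symbol his-62 stands on several rows, of which gene19652 had 3.37, 3.28 and 9.35 CPM. The genes T23F2.5 and C25H3.11 had 10.7, 6.36 and 18.8 CPM and 9.10, 4.58 and 15.8 CPM. An added locus with no gene name, NewGene_1071, was the exception in level, with 3111, 3789 and 12717 CPM.

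Many housekeeping lists did not vary. None of 32 proteasome rows, 20 vacuolar ATPase rows, 19 lysosomal protease rows, 18 endoplasmic reticulum stress rows, 16 glycolysis rows or 21 cell cycle rows reached 1.5-fold, against 8.74% of all rows. The glycolytic enolase enol-1, for example, had 747, 757 and 728 CPM in controls 1, 2 and 3. Of 64 ribosomal protein rows 4 varied, namely rpl-21, rpl-23, rpl-25.1 and rpl-43, all highest in control 3. Their median deviation in control 3 was 0.12, and it turned to -0.072 when the length trend was removed. At 100 CPM or more the closest agreement between libraries among named genes was in the proton pump subunit unc-32, with 235, 236 and 234 CPM, the microRNA pathway gene ain-2, with 143, 144 and 143 CPM, and the mitochondrial aconitase aco-2, with 1240, 1248 and 1247 CPM.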

How the data were processed

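The authors deposited 1 table of whole-number read counts per row, without normalization, and the 3 control columns were used. The other 5 columns belong to the compound libraries and were not used. The submitters' processing notes name WBcel235 and DESeq2 but not the step each served. How reads were aligned, counted, assigned to a strand or shared among several matching genes remains unstated in those sources. Reads of overlapping or antisense genes may therefore be mixed. Gene models without a symbol held 5.61% to 5.68% of counts.

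Counts were scaled by TMM in edgeR 4.0.16 (R 4.3.3) to CPM. For levels per length, rows whose symbol matched 1 protein-coding gene of the WBcel235 annotation, Ensembl release 115, were divided by its union exon length. These 17761 rows held 85.8% to 87.3% of counts, and 96.9% of gene-model rows with a symbol matched. There were 404 symbols on more than 1 row (869 rows), which have no length here. With 1 group no test was made. The spread was described by the fold between libraries and by edgeR's dispersion, which was tested on simulated data. To remove the length trend, each library's median deviation in 20 length bins was divided out of its CPM.

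The genes named are the 20 highest per length, members of the 62 lists (all tissue, germline and stage markers, and of each list the most abundant 4 and the most varying), the 15 most varying rows and the 10 most stable. The rows by reads and others, such as ant-1.1, were chosen after their values were seen. The gene lists and the samples were chosen with earlier results of these data known. Alternatives were raw totals, DESeq2 1.42.0 size factors, upper-quartile scaling, other filters and folds, an excess coefficient of variation of 20%, rows of a symbol summed, and each library left out. Analyses restricted to rows with a length, and without the added loci, were chosen after seeing the data. Plots used Python 3.11.15, pandas 2.3.3 and matplotlib 3.10.9.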

Additional observations from a re-analysis of the deposited data

How the results depend on the processing

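The number of rows at 1 CPM or more, 14423, stayed within 1.5 times under every scaling, with each library left out, and with rows of a symbol summed. Levels of single rows could shift more without a library, since NewGene_1071 had 3111, 3789 and 12717 CPM in controls 1, 2 and 3. The number of varying rows depended on the setting, from 985 to 6971 with no filter, 212 at a mean of 20 CPM or more and 98 at 2-fold. Leaving out a library gave 209 to 591 varying rows, and a range over 2 libraries is narrower than over 3 by construction. Other scalings gave 947 to 1020, the excess coefficient of variation 1067, and removal of the length trend 730. The ribosomal share of 18.8% was 18.1% with rows of a symbol summed and 7.80% by reads without division by length. Median log2 deviations changed sign in 5 cases. Leaving out a library in turn gave -0.25 to 0.026 (without replicate 3) for histones in control 2, -0.23 to 0.052 (without replicate 3) for lysozymes in control 2 and -0.33 to 0.062 (without replicate 3) for antimicrobial peptides in control 1. With the length trend removed control 3 had -0.072 for ribosomal proteins and -0.023 for histones. No paired analysis was possible because only the control group is described and no test was made. Rows near 5 CPM carry a counting error of 7.86%, and 27.6% of rows at 5 to 10 CPM also reached the excess coefficient of variation of 20%. Rows that share a symbol are limited by unknown assignment of reads.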

Other observations

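The added loci NewGene_1071 and NewGene_1072 carry no gene name in the deposited table. NewGene_1071 had 105336, 125763 and 380867 counts in controls 1, 2 and 3, and NewGene_1072 had 156815, 169290 and 257013 counts. Both were highest in control 3. Another abundant added locus, NewGene_1322, had 1374, 1299 and 1489 CPM, a 1.15-fold range. Without the added loci 956 rows varied between the controls.

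The cytochrome P450, UDP-glucuronosyltransferase and glutathione S-transferase families differed in how many members were detected. Of 75 cytochrome P450 rows 34 reached 5 CPM, against 52.9% of all rows, led by cyp-31A2 at 66.8 ± 8.29 TPM and cyp-37B1 at 66.4 ± 4.75 TPM (SD, n = 3), and 3 of the 34 varied. Of 69 UDP-glucuronosyltransferase rows 43 reached 5 CPM, led by ugt-47 at 140 ± 8.99 TPM, and 6 varied. Of 49 glutathione S-transferase rows 21 reached it, led by gst-1 at 258 ± 2.50 TPM and gst-7 at 187 ± 17.4 TPM, and 3 varied. These shares of varying rows, 8.82%, 13.95% and 14.3%, stand beside 8.74% of all rows.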
